A study of Rattus norvegicus with 17 samples.

Results

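Clu, Fgf9, Ptgds, Gdnf, Kitlg, Cldn11, Tf, Dmrt1 and Wt1 are 9 genes associated with Sertoli cells, the somatic cells that line the testis cords. They were followed in RNA of the fetal rat testis after exposure of the mother to dipentyl phthalate (DPeP), a phthalate ester plasticizer. Each was found by its gene symbol, and each matched 1 identifier, which gave 9 genes of 30560 in all. The animals were wild type Sprague Dawley rats. Dams were gavaged with corn oil alone (vehicle, 3 libraries) or with DPeP in corn oil at 1 (3 libraries), 11 (3 libraries), 100 (3 libraries) or 300 mg/kg/d (5 libraries). Dosing ran over gestational days 17 to 21 at 2.5 mL/kg, and testes were taken on day 21. Every group, vehicle included, thus received corn oil on the same days. A library held RNA from 1 testis, or from 2 testes of littermates put together. The labels do not say whether 2 libraries of a group share a dam, so p-values measure only the spread between these libraries.

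In the fetal testis, Sertoli cells enclose the germ cells and signal both to them and to the surrounding cells. Fgf9 and prostaglandin D2, the product of the enzyme encoded by Ptgds, both act in the early gonad to keep up the expression of Sox9, the transcription factor that drives Sertoli cell fate. Gdnf and Kitlg are ligands of the receptors Ret and Kit on germ cells, and Clu and Tf are secreted proteins. Cldn11 encodes a protein of Sertoli cell tight junctions, and junctions at this age were not examined here. Dmrt1 and Wt1 are transcription factors of the Sertoli cell lineage. None of the 9 is made by Sertoli cells alone: Tf and Clu are also made in liver and many epithelia, Dmrt1 also in germ cells and Kitlg also in other stromal cells.

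At 300 mg/kg/d, Clu, Fgf9 and Ptgds rose, each in all 5 libraries above all 3 vehicle libraries, by 1.79-fold, 1.96-fold and 2.04-fold. Of all genes tested, 0.994% were called higher there, and 5.82% had every library above every vehicle library. The other 6 of the 9 genes were not called. In 100 mg/kg/d libraries Fgf9 and Ptgds had similar fitted increases, 1.64-fold each, that did not pass the threshold. At 1 and 11 mg/kg/d no gene of the 9 was called. The levels of Fgf9 at these doses lay below those of the vehicle libraries, as for 2.47% of all genes.

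Library depth was 14282274 to 20323488 counts assigned to genes. The 100 mg/kg/d libraries 05 and 18 stood apart in mitochondrial transcripts, which made up 9.05% and 7.76% of their counts, against 4.35% to 6.16% in the other 15 libraries. The lowest count of any of the 9 genes in any library was 47, for Fgf9, and all 9 passed the filter on low counts. The exons of the 9 genes overlapped no exon of another gene in the gene models used for counting. Levels are given as CPM (gene counts scaled to a total of 1000000, with library sizes adjusted by TMM), and as TPM (counts over summed exon length, scaled to 1000000 per library) where genes are compared with each other. In these whole-testis libraries, fewer cells of a type and less RNA per cell cannot be told apart.

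The summed level of 7 Sertoli cell markers (Sox9, Sox8, Amh, Inha, Inhbb, Dhh and Fshr) was 2413 to 3217 CPM in vehicle and 2790 to 5071 CPM at 300 mg/kg/d, and no marker was at 0 in all libraries. Without Amh, the anti-Müllerian hormone, which held much of that sum, the range was 1236 to 1584 CPM in vehicle and 882 to 1283 CPM at 300 mg/kg/d. Inha was the one marked fall among the markers of that sum, at 824 ± 148 CPM (SD, n = 3) in vehicle and 353 ± 65.2 CPM (SD, n = 5) at 300 mg/kg/d. The means of the other 5 were 47.7 and 66.6 CPM for Sox9, 20.9 and 37.4 for Sox8, 75 and 109 for Dhh, 15.1 and 16.5 for Fshr and 467 and 453 for Inhbb, of which Sox8 and Dhh were called higher. Amh was also called higher and Inha lower, where 0.994% of all genes were called higher and 1.41% lower. The summed level of 6 Leydig cell markers (androgen-producing cells of the interstitium) was 4591 to 5790 CPM in vehicle and 1203 to 1898 CPM at 300 mg/kg/d. All 6 were called lower, as 1.41% of all genes were. Markers of endothelial cells summed to at least 440 CPM in vehicle (mean 443 CPM) and 332 to 381 CPM at 300 mg/kg/d. Those of macrophages summed to 76.9 to 91.3 and 60 to 76.5 CPM, those of germ cells to 236 to 289 and 253 to 301 CPM, and those of peritubular myoid cells to 903 to 963 and 950 to 1424 CPM. Nanos2 was called higher among the germ cell markers and Tyrobp lower among the macrophage markers at 300 mg/kg/d. Markers of the mesonephric duct and epididymis summed to 23.3 to 36 CPM in vehicle and 67.5 to 92.9 CPM at 300 mg/kg/d, with Lcn2 the called gene among them and 10.9 to 13.2 against 13.6 to 16.5 CPM without it. At 100 mg/kg/d the endothelial sum was 200 to 373 CPM and the germ cell sum 293 to 506 CPM. The part of these cell type differences in the changes below was not tested.

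On the TPM scale, the mean levels in vehicle ordered the 9 genes from Cldn11 at 106 TPM through Wt1 at 103, Clu at 91.5, Dmrt1 at 64.2, Tf at 61.5, Kitlg at 24.4, Gdnf at 17.3 and Ptgds at 17.1 to Fgf9 at 2.79 TPM. The neighbours Cldn11 and Wt1, Wt1 and Clu, Dmrt1 and Tf, and Gdnf and Ptgds overlapped over the 3 libraries, so their order does not hold beyond the spread. Steps between Clu and Dmrt1, Tf and Kitlg, Kitlg and Gdnf, and Ptgds and Fgf9 were free of overlap. Kitlg and Ptgds, which are not neighbours, did overlap, with Kitlg down to 19.1 TPM and Ptgds up to 22.6 TPM. At 300 mg/kg/d Clu led at 170 TPM, followed by Wt1 at 127 and Cldn11 at 94.7, and Ptgds at 36.7 stood above Kitlg at 30.7 and Gdnf at 19.9. Clu and Wt1 overlapped, as did Wt1 and Cldn11, and Ptgds and Kitlg. Fgf9 was lowest again, at 5.69 TPM.

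**Figure D1:**
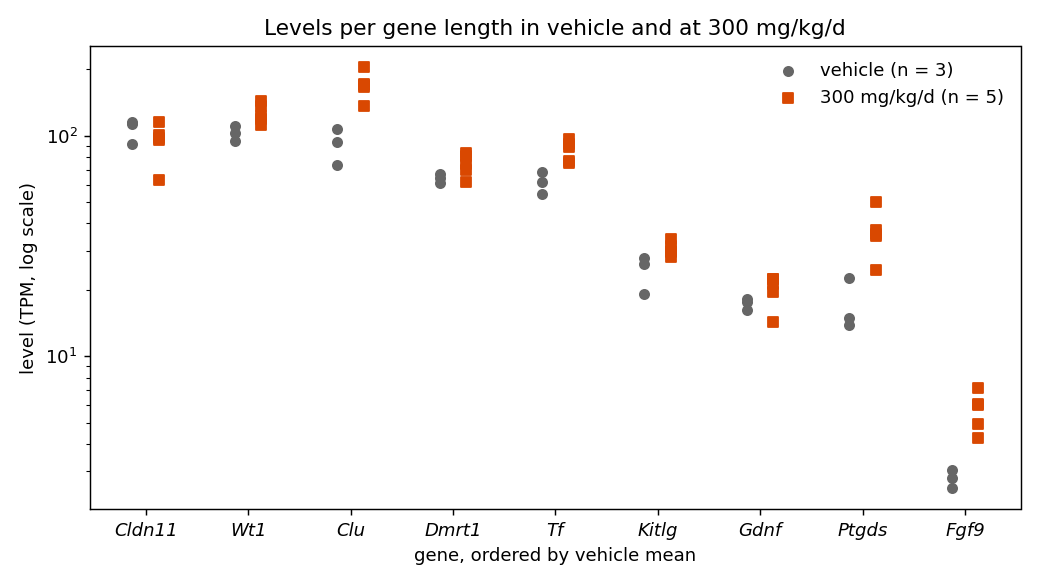
Level per length (TPM, log axis) of the 9 genes in each vehicle library (circles) and each 300 mg/kg/d library (squares). Cldn11, Wt1 and Clu are highest in vehicle at 91.5 to 106 TPM on average, and Fgf9 is lowest at 2.79 TPM.

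Fgf9 (ENSRNOG00000011471, chromosome 15, 32210074 to 32253309 on the plus strand of mRatBN7.2, summed exon length 4035 bases) encodes a secreted fibroblast growth factor. Its level was 4.69, 5.25 and 4.52 CPM in vehicle replicates 01, 08 and 15, and at 300 mg/kg/d it was 7.2, 11.8, 10.2, 8.13 and 9.91 CPM in replicates 06, 07, 13, 14 and 20. Every library at 300 mg/kg/d lay above every vehicle library. The mean was 9.44 ± 1.80 CPM (SD, n = 5) against 4.82 ± 0.381 CPM (SD, n = 3), a log2 fold change of 0.97 (SE 0.199, 95% interval 0.55 to 1.38, edgeR quasi-likelihood adjusted p = 0.00924). That is a 1.96-fold rise. It passed the threshold in 15 of 17 alternative settings (adjusted p of 0.000211 to 0.0666) and was lost without vehicle replicate 01 (0.0509) or vehicle replicate 15 (0.0666). Of the 18005 genes tested, 0.994% were called higher in this comparison.

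In the 100 mg/kg/d group, Fgf9 was 7.40, 9.46 and 6.89 CPM in replicates 05, 18 and 19, all above vehicle. Its log2 fold change was 0.72 (SE 0.218, 95% interval 0.26 to 1.17, edgeR adjusted p = 0.097), so it was not called. Without replicates 05 and 18, which leaves 1 library at this dose whose spread is taken from the other groups, the change was 0.50 (edgeR adjusted p = 0.472). At 11 mg/kg/d the level was 2.85, 4.31 and 2.67 CPM in replicates 03, 16 and 17, and at 1 mg/kg/d it was 3.12, 4.11 and 4.07 CPM in replicates 02, 09 and 10. All 6 of these libraries lay below the lowest vehicle library, a pattern that 2.47% of all genes showed. The fitted log2 changes were -0.56 at 11 mg/kg/d (SE 0.228, unadjusted p = 0.0242, edgeR adjusted p = 0.992) and -0.36 at 1 mg/kg/d (SE 0.229, edgeR adjusted p = 0.864), and neither passed the threshold. Fgf9 levels across the doses thus ran from below vehicle at the lower doses to above it at the higher doses, with the lower side not called.

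Ptgds (ENSRNOG00000015550, chromosome 3, 8281899 to 8284833 on the minus strand, summed exon length 759 bases) encodes lipocalin-type prostaglandin D2 synthase. Its level was 4.37, 4.86 and 7.62 CPM in vehicle replicates 01, 08 and 15, and 7.87, 11.5, 11.2, 15.6 and 11.0 CPM at 300 mg/kg/d in replicates 06, 07, 13, 14 and 20. The groups did not overlap, although vehicle replicate 15 came close to replicate 06. The mean was 11.5 ± 2.76 CPM (SD, n = 5) against 5.62 ± 1.75 CPM (SD, n = 3), a log2 fold change of 1.03 (SE 0.224, 95% interval 0.56 to 1.5, edgeR adjusted p = 0.0147), or 2.04-fold. The call was lost without vehicle replicate 01 (adjusted p = 0.1) or vehicle replicate 08 (0.0916), and the adjusted p ranged from 0.000451 to 0.1 over 17 alternatives. In the 100 mg/kg/d group it was 10.1, 10.3 and 7.15 CPM in replicates 05, 18 and 19. Replicate 19 lay inside the vehicle range and the other two above it, with a log2 fold change of 0.71 (SE 0.245, edgeR adjusted p = 0.134). Without replicates 05 and 18 it was 0.33 (edgeR adjusted p = 0.702). At 1 and 11 mg/kg/d the level was 4.31 to 6.54 CPM in the 6 libraries, inside or just under the vehicle range.

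The sequences upstream of the start site are shown for Fgf9 and Ptgds, which rose, and for Tf and Cldn11, which were not called and differed in the sign of their fitted change. They are the 250 bases before the start from RefSeq on GRCr8, 5′ to 3′ on the strand of the gene: Fgf9 at chr15:36327108-36327357 (plus), Ptgds at chr3:28682979-28683228 (minus), Tf at chr8:112695377-112695626 (minus) and Cldn11 at chr2:114149540-114149789 (minus). The table held an entry for 8 of the 9 genes, with no entry for Clu. Capitals mark matches to the motifs, searched on both strands. These were the TATA box, with the letters TATAAA, and the CCAAT box. The nuclear receptor half-site was searched as AGGTCA. The SOX core was ACAAT, with ACAAAG as its other form. The GATA core was AGATAA, and its second form was TGATAA. No 2 matches overlapped each other in the 8 windows. The same search was run over the 250 bases of all 33469 promoters in the table.
Fgf9: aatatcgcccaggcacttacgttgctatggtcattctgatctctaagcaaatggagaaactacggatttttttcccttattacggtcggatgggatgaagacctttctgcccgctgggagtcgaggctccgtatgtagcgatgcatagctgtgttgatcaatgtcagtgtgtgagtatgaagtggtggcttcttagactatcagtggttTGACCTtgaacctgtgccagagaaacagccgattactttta
Ptgds: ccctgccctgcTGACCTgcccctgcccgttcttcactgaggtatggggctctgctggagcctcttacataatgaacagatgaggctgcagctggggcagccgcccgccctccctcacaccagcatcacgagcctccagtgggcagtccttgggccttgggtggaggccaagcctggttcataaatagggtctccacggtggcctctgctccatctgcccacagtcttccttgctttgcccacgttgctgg
Tf: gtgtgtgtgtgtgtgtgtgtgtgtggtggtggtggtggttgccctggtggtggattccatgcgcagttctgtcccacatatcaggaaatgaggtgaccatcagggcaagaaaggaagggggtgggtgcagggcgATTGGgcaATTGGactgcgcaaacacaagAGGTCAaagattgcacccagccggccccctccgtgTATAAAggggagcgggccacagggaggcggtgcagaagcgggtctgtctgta
Cldn11: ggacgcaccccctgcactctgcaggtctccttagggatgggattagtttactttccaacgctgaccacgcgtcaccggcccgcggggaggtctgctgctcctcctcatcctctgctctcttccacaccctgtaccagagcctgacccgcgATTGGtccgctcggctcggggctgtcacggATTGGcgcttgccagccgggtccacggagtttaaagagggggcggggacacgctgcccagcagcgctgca

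AGGTCA or its reverse complement TGACCT stood in the windows of Fgf9, Gdnf, Ptgds and Tf, and in 14.1% of all promoters. In Fgf9 it lay 41 to 36 bases before the start, and in Ptgds 239 to 234 bases. TATAAA stood in the windows of Gdnf, Kitlg and Tf and in 12.9% of all, CCAAT in those of Cldn11, Dmrt1 and Tf and in 34% of all. The SOX core stood in that of Kitlg alone among the 8 and in 40.6% of all, and the GATA core in none of the 8 and in 16.9% of all. GC content was 46% in the Fgf9 window, 62% in that of Ptgds and 64.8% in that of Cldn11, with a median of 51.2% over all promoters. A match describes letters only.

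Clu (ENSRNOG00000016460, chromosome 15, 40174617 to 40200315 on the plus strand, summed exon length 2221 bases) encodes clusterin, a secreted chaperone that is a main protein product of Sertoli cells. Its level was 98.8, 69.8 and 92.7 CPM in vehicle replicates 01, 08 and 15, and 127, 154, 156, 187 and 154 CPM at 300 mg/kg/d in replicates 06, 07, 13, 14 and 20. All 5 treated libraries lay above the 3 vehicle libraries, with replicate 14 highest. The mean was 156 ± 21.1 CPM (SD, n = 5) against 87.1 ± 15.3 CPM (SD, n = 3), a log2 fold change of 0.84 (SE 0.151, 95% interval 0.52 to 1.15, edgeR adjusted p = 0.00288). In the 100 mg/kg/d group it was 87.3, 108 and 118 CPM in replicates 05, 18 and 19, at 11 mg/kg/d 77.2, 94.5 and 75.3 CPM in replicates 03, 16 and 17, and at 1 mg/kg/d 74.9, 111 and 105 CPM in replicates 02, 09 and 10. Of these 9 libraries, 4 lay above the highest vehicle library and 5 inside the vehicle range, and the change at 100 mg/kg/d was 0.26 (SE 0.164, edgeR adjusted p = 0.389), and 0.42 without replicates 05 and 18 (edgeR adjusted p = 0.359).

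Tf (ENSRNOG00000030625, chromosome 8, 103767995 to 103816511 on the minus strand, summed exon length 3987 bases) encodes transferrin, which carries iron to germ cells and other cells. Its level was 90.2, 105 and 121 CPM in vehicle replicates 01, 08 and 15, and 129, 157, 153, 145 and 121 CPM at 300 mg/kg/d in replicates 06, 07, 13, 14 and 20. Replicate 20 was level with the highest vehicle library, and the other 4 lay above it. The mean was 141 ± 15.7 CPM (SD, n = 5) against 106 ± 15.4 CPM (SD, n = 3), a log2 fold change of 0.42 (SE 0.115, 95% interval 0.18 to 0.66, edgeR adjusted p = 0.0624), which was not called. With 100 mg/kg/d it was 99.5, 107 and 106 CPM, inside the vehicle range. Liver markers summed to 133 CPM in 300 mg/kg/d replicate 07, where Tf was highest, and to 6.2 to 13.9 CPM in the vehicle libraries. They summed to 67.5 CPM in 1 mg/kg/d replicate 09, and to at most 16.5 CPM in the other libraries. In 300 mg/kg/d replicates 06, 13, 14 and 20 the liver markers summed to 7.75, 5.32, 10.3 and 13.3 CPM. Whether liver RNA had a part in the Tf levels was not tested. Without replicate 07 the Tf change was 0.37 (edgeR adjusted p = 0.146, with 0.0194 to 0.282 over the 17 alternatives).

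Gdnf and Kitlg are the secreted factors with germ cell receptors. Gdnf (ENSRNOG00000012819, chromosome 2, 56895010 to 56917209, plus strand, summed exon length 738 bases) was 5.57, 5.14 and 5.76 CPM in vehicle and 4.42, 5.91, 6.90, 6.75 and 6.31 CPM at 300 mg/kg/d. Libraries at 300 mg/kg/d lay on both sides of the vehicle range, and the log2 fold change was 0.14 (SE 0.218, 95% interval -0.31 to 0.60, edgeR adjusted p = 0.854). It was 3.88 to 6.82 CPM at 100 mg/kg/d, 5.03 to 9.02 CPM at 11 mg/kg/d and 5.41 to 7.67 CPM at 1 mg/kg/d, with a wider spread at 11 mg/kg/d than in vehicle. Kitlg (ENSRNOG00000005386, chromosome 7, 34896053 to 34977214, plus strand, summed exon length 5381 bases) was 62.5, 44.1 and 62.6 CPM in vehicle and 67.5, 74.9, 67.2, 62.1 and 68.8 CPM at 300 mg/kg/d. Of the 5, 4 lay above every vehicle library, and the log2 fold change was 0.27 (SE 0.146, 95% interval -0.03 to 0.58, edgeR adjusted p = 0.454). The 100 mg/kg/d libraries had 70.7, 81.7 and 48.4 CPM of Kitlg in replicates 05, 18 and 19, with replicate 19 far below the other two and a change of 0.25 (SE 0.162, edgeR adjusted p = 0.404). The sign turned without replicates 05 and 18, to -0.237 (edgeR adjusted p = 0.592), and without replicate 19 Kitlg was called (edgeR adjusted p = 0.0308, with 0.0308 to 0.888 over 15 alternatives).

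Cldn11, Dmrt1 and Wt1 make up the junction and transcription factor genes of the 9. Cldn11 (ENSRNOG00000010263, chromosome 2, 112207745 to 112221050, minus strand, summed exon length 1848 bases) was 87.8, 72.7 and 92.6 CPM in vehicle and 90.0, 73.8, 48.9, 76.7 and 71.0 CPM at 300 mg/kg/d. The groups overlapped, with replicate 13 lowest, and the log2 fold change was -0.23 (SE 0.157, 95% interval -0.56 to 0.10, edgeR adjusted p = 0.592), the one negative change of the 9. Dmrt1 (ENSRNOG00000016075, chromosome 1, 223142859 to 223241333, plus strand, summed exon length 1415 bases) was 39.6, 36.9 and 40.4 CPM in vehicle and 36.7, 42.9, 49.7, 46.8 and 40.0 CPM at 300 mg/kg/d, again with overlap and a change of 0.15 (SE 0.122, 95% interval -0.10 to 0.40, edgeR adjusted p = 0.663). At 11 mg/kg/d it was 53.3, 43.1 and 42.7 CPM, all above vehicle, as 5.28% of all genes were. Wt1 (ENSRNOG00000013074, chromosome 3, 91567001 to 91613643, plus strand, summed exon length 2884 bases) was 133, 127 and 122 CPM in vehicle and 149, 141, 174, 162 and 130 CPM at 300 mg/kg/d. Replicate 20 lay inside the vehicle range and the other 4 above it, and the change was 0.25 (SE 0.0913, 95% interval 0.06 to 0.44, edgeR adjusted p = 0.197). At 1 mg/kg/d, Wt1 was 136, 145 and 138 CPM, all above vehicle, as 6.47% of all genes were.

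**Figure D2:**
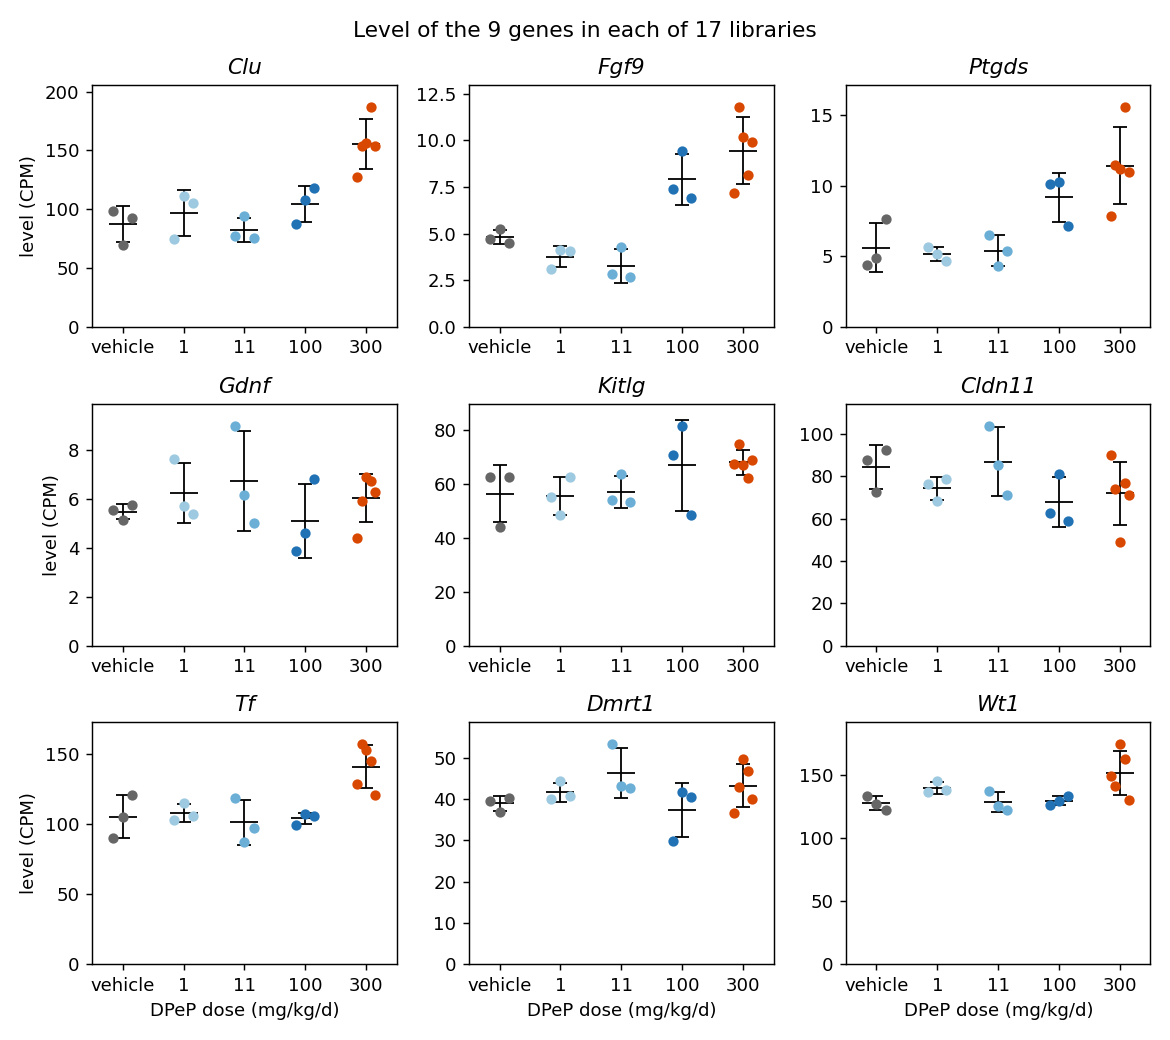
CPM of the 9 genes in each of the 17 libraries by dose of DPeP (mg/kg/d), 1 panel per gene with its own linear axis from 0, points for libraries and bars for the mean and SD. Clu, Fgf9 and Ptgds lie above all vehicle libraries in all 5 libraries at 300 mg/kg/d, and Cldn11 and Gdnf overlap vehicle.

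Over the 9 genes, 3 were called higher and 0 lower at 300 mg/kg/d, where 0.994% of all genes were called higher and 1.41% lower. Their median log2 fold change was 0.27, with 0.01 for all genes tested, and 8 of the 9 were positive, as 52% of all genes were. Full separation above vehicle held for the same 3 genes and for 5.82% of all genes. The 9 genes and the lists below were chosen with earlier results of these data known. The shares of all genes set beside them therefore describe and do not test. At 100 mg/kg/d 0 of the 9 were called with edgeR or limma-voom, with 0.494% of all genes called higher, and 1 (Fgf9) with DESeq2. Without 100 mg/kg/d replicate 19, edgeR called 3 of the 9 (Fgf9, Kitlg and Ptgds) and 4250 genes in all, against 274 with it. At an unadjusted p under 0.05, 2 of the 9 (Fgf9 and Ptgds) and 19.2% of all genes passed there. Fgf9 was the one gene of the 9 with all 3 libraries above vehicle at 100 mg/kg/d, as 7.14% of all genes were. At 11 mg/kg/d 0 of the 9 were called with edgeR, limma-voom or DESeq2, with 0% of all genes called by edgeR. There 1 (Fgf9) and 3.52% of all genes had an unadjusted p under 0.05. At 1 mg/kg/d the same tools called 0 of the 9, edgeR called 0% of all genes, and 0 of the 9 and 4.95% of all genes had an unadjusted p under 0.05.

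**Figure D3:**
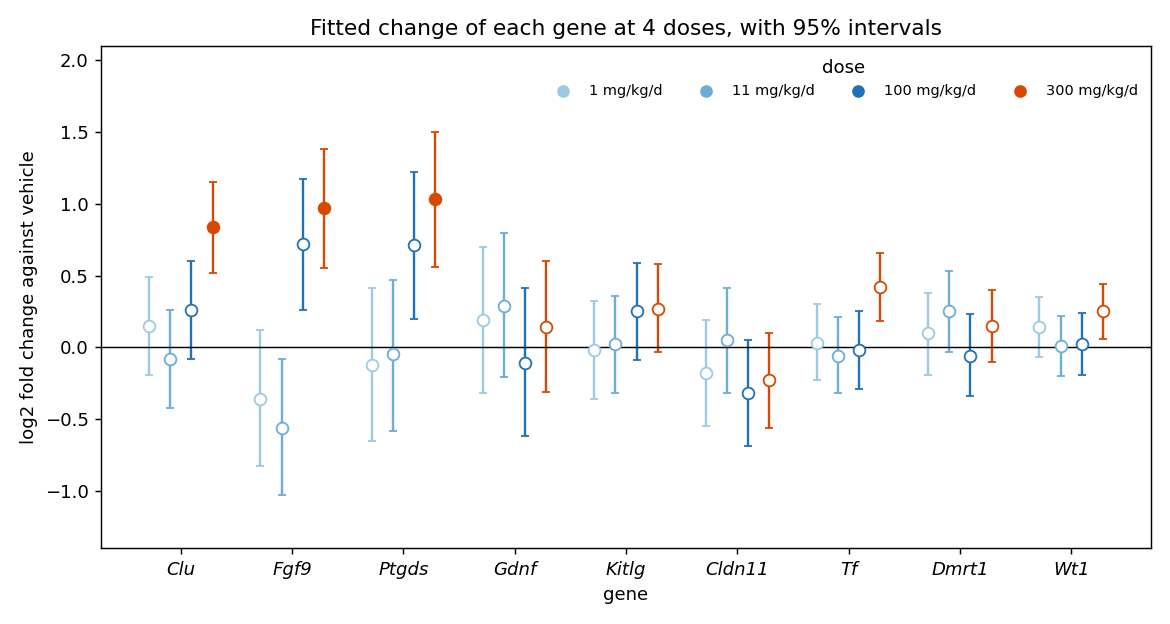
Log2 fold change against vehicle of the 9 genes at each dose, with 95% intervals from the edgeR fit and filled points where the adjusted p was under 0.05. At 300 mg/kg/d the intervals of Clu, Fgf9, Ptgds, Tf and Wt1 lie above 0, and the first 3 are filled.

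The 300 mg/kg/d libraries were also set against those at 100 mg/kg/d. All 9 fitted changes were positive, with a median of 0.25, beside a median of -0.01 and 49.2% positive over all genes. The signs of Gdnf, Kitlg and Cldn11 turned in some alternative settings. With edgeR or limma-voom 0 of the 9 were called, with 0.00555% of all genes called higher by edgeR. DESeq2 called 2, Clu and Tf. So did edgeR without 100 mg/kg/d replicate 19, with 5872 genes called in all, against 1 with it. The edgeR changes were 0.58 for Clu (SE 0.149, adjusted p = 0.0837) and 0.44 for Tf (SE 0.115, adjusted p = 0.0899). Clu, Tf and Wt1 had an unadjusted p under 0.05, as 24.2% of all genes did. Fgf9 and Ptgds differed by 0.25 (95% interval -0.14 to 0.65) and 0.32 (95% interval -0.13 to 0.76) between these doses. Without replicates 05 and 18 the 4 changes were 0.41 for Clu, 0.42 for Tf, 0.46 for Fgf9 and 0.69 for Ptgds, each with an edgeR adjusted p of 0.982.

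A slope on log2(dose + 1) over all 17 libraries was called for the 3 genes that rose, with 2.74% of all genes called higher and 2.98% lower. It shares its libraries with the dose comparisons. The slope is the log2 change in level per doubling of dose + 1. It was 0.152 for Fgf9 (SE 0.0277, edgeR adjusted p = 0.00175), 0.141 for Ptgds (SE 0.0233, edgeR adjusted p = 0.000685) and 0.0908 for Clu (SE 0.0191, edgeR adjusted p = 0.00542). For Tf it was 0.0427 (edgeR adjusted p = 0.08), and it was called in 2 of 25 alternatives (adjusted p of 0.0186 to 0.181), without replicate 05 and without replicates 05 and 18 together (0.0186). The slope of Kitlg was not called, at 0.0386 (edgeR adjusted p = 0.122). Slopes of the remaining 4 genes lay between -0.0262 for Cldn11 and 0.0192 for Wt1.

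Set against Wt1 counts in the same library, as a Sertoli-lineage gene that was not called, Fgf9 at 300 mg/kg/d was 0.71 higher on the log2 ratio scale than in vehicle and all 5 libraries lay above vehicle. The difference was 0.60 for Clu, also with 5 of 5 libraries above vehicle, and 0.80 for Ptgds, with 4 of 5 above. For Tf it was 0.18 with 1 of 5 above. For Cldn11 it was -0.49 with 0 of 5 above. With 100 mg/kg/d the difference was 0.68 for Fgf9 with 3 of 3 above, 0.71 for Ptgds with 2 of 3 above and 0.24 for Clu. Wt1 itself had a fitted change of 0.25 at 300 mg/kg/d (95% interval 0.06 to 0.44), which lowers each ratio at that dose. Without division by Wt1, the fitted changes there were 0.42 for Tf and -0.23 for Cldn11. The share of all genes that separate from vehicle on this scale was not computed.

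**Figure D4:**
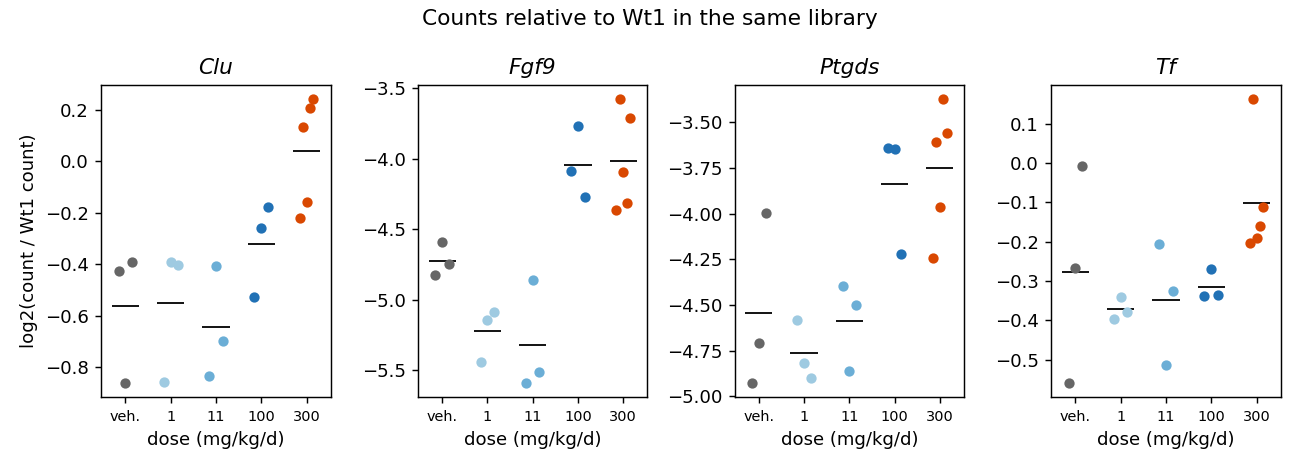
Log2 ratio of the counts of Clu, Fgf9, Ptgds and Tf to Wt1 counts in the same library, by dose (mg/kg/d), with points for libraries and lines for group means. Clu and Fgf9 are above vehicle in all 5 libraries at 300 mg/kg/d, with mean differences of 0.60 and 0.71.

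Sample titles carry 1 of 3 codes, whose meaning the labels do not give, and libraries were also compared within a code. In one code (2 libraries at 300 mg/kg/d against 1 vehicle library) the log2 ratios were 0.74 for Clu, 1.28 for Fgf9, 0.58 for Ptgds and 0.36 for Tf. In another (3 libraries against 1) they were 0.66, 0.84, 1.40 and 0.54 in the same order. All were positive in both codes, as were those of Gdnf, Kitlg, Dmrt1 and Wt1, and that of Cldn11 was negative in both. The third code held no library at 300 mg/kg/d. These ratios rest on 1 vehicle library each and carry no test. With the code as a term in the fit, Clu and Fgf9 were called at 300 mg/kg/d, and Ptgds had an edgeR adjusted p = 0.0649 (0.000451 to 0.1 over the 17 alternatives).

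The other genes of the same cell and pathways were taken from lists of known members, which overlap. Amh, Inha, Inhbb and Dhh stand in both the marker and the secreted list, and Sox9, Sox8, Gata4, Nr0b1 and Cbx2 in both the marker list and that of gonad regulators, so their calls are the same calls. Over all genes tested at 300 mg/kg/d, 0.994% were called higher and 1.41% lower. Of 15 other Sertoli cell marker genes tested at 300 mg/kg/d (18 listed), 3 rose and 2 fell, beside those 0.994% and 1.41% of all genes. Amh, the hormone that regresses the Müllerian duct, rose by 0.83 on the log2 scale (SE 0.187, edgeR adjusted p = 0.018), Dhh, a hedgehog ligand received by Leydig and myoid cells, by 0.54 (SE 0.128, edgeR adjusted p = 0.0243) and Sox8, a relative of Sox9, by 0.84 (SE 0.15, edgeR adjusted p = 0.00265). Inha, the alpha subunit of inhibin, fell by 1.22 (SE 0.152, edgeR adjusted p = 4.99e-05) and the orphan nuclear receptor gene Nr0b1 by 0.96 (SE 0.128, edgeR adjusted p = 0.000118). The median of the list was 0.31. In whole-testis RNA, the cell type in which these genes changed was not tested. Sox9 itself was at 0.48 (edgeR adjusted p = 0.211) and not called.

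Of 17 other secreted factors tested (18 listed), 3 rose (Amh, Dhh and Plat, tissue plasminogen activator, at 0.55, SE 0.141, edgeR adjusted p = 0.0428) and 1 fell (Inha), with a median of 0.13, again beside 0.994% and 1.41% of all genes. Of 12 receptors and partners of the secreted genes tested (16 listed), 0 were called by edgeR, DESeq2 or limma-voom, with a median of 0.05, and 5 had an unadjusted p under 0.05, as 13.3% of all genes did. Gfra1, Ptgdr and Slc40a1 matched no gene symbol, and Ptgdr2, at group means of 0.108 to 0.337 CPM, was not tested. The listed prostaglandin D2 receptors, Ptgdr and Ptgdr2, are thus not covered by this result. Kit, the receptor for Kitlg, was at 0.08 (edgeR adjusted p = 0.875) and Ret, a receptor for Gdnf, at 0.33 (edgeR adjusted p = 0.529). Among the receptors, Fgfr1, which binds fibroblast growth factors, had the highest mean level at 115 TPM and Lrp8, which binds apolipoproteins, the next at 64.7 TPM. Their fitted changes were -0.07 (edgeR adjusted p = 0.851) and -0.01 (edgeR adjusted p = 0.988).

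Of 16 other junction genes tested at 300 mg/kg/d, 1 was called. Gja1, which encodes the gap junction protein connexin 43, fell by 0.71 (SE 0.164, edgeR adjusted p = 0.0231), where 1.41% of all genes were called lower. Which cell type the fall of Gja1 came from was not tested. The median of the list was 0.24, with 14 of the 16 positive, beside 0.01 and 52% positive over all genes. The list of gonad regulators held 14 tested genes, mostly transcription factors and their partners, with the secreted signals Rspo1 and Wnt4 among them. Of these, Sox10 rose by 1.98 (SE 0.298, edgeR adjusted p = 0.000533), and the calls of Sox8 (higher) and Nr0b1 (lower) are those given above, with a median of 0.23 for the list. At 100 mg/kg/d 2 of the 15 other Sertoli cell markers were called, Nr0b1 and Inha, both lower, as 1.03% of all genes were.

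The genes whose log2 CPM followed each of the 9 most closely over the 17 libraries were named by Pearson r among 14476 genes, as a description. The libraries share dose groups and depth. For Clu they were Ntn4 (r = 0.96), Mybpc3 (0.93) and Unc45b (0.91), for Fgf9 AABR07058464.1 (0.92), Col9a1 (0.89) and Cd55 (0.88), and for Ptgds Etv4 (0.93), Stom (0.91) and Krt18 (0.90). Krt18 was one of the Sertoli cell markers. For Tf they were Pheta1 (0.91), Atp1b1 (0.88) and Ctnnbip1 (0.87), for Kitlg Ctsl (0.84), Dipk2a (0.84) and Zdhhc2 (0.83), and for Gdnf Rgl2 (0.84), Fam222a (0.83) and Rnf126 (0.83). Ctsl, which encodes the protease cathepsin L, was also on the Sertoli cell marker list. For Dmrt1 they were Klc2 (0.90), Pcbp4 (0.89) and Efnb1 (0.86), for Wt1 Parvb (0.88), Wnt6 (0.85) and Gdpd5 (0.84), and for Cldn11 Tpgs1 (0.77), Glipr2 (0.76) and Ube2d2 (0.75). No 2 of the 9 genes shared a gene among these. By rank (Spearman rho) some correlations were weaker, at 0.74, 0.61 and 0.65 for Klc2, Pcbp4 and Efnb1 with Dmrt1. Others were similar or higher, with 0.91 for Zdhhc2 and Kitlg.

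**Figure D5:**
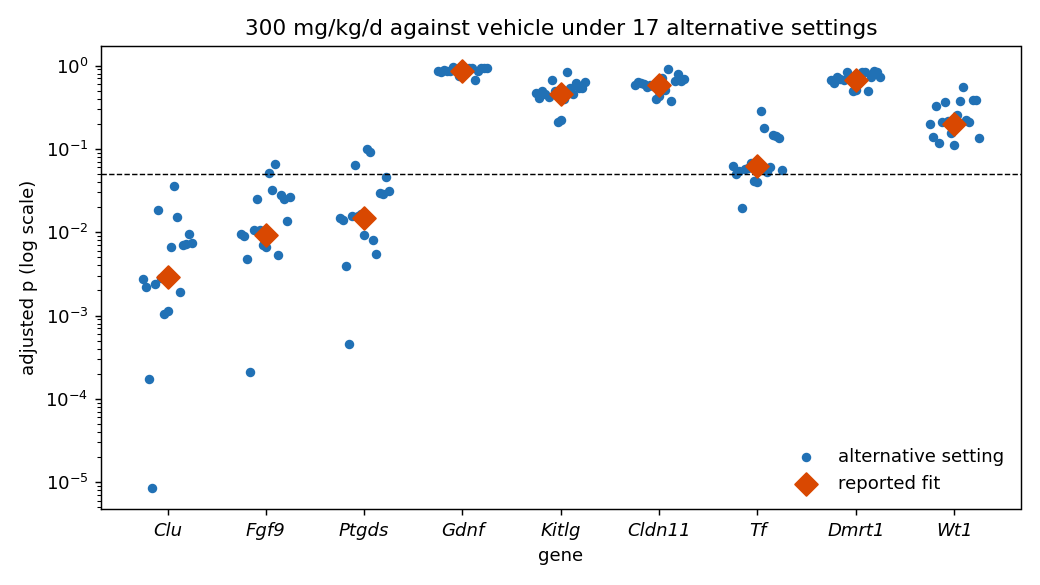
Adjusted p (log axis) of each of the 9 genes at 300 mg/kg/d against vehicle in the reported fit (diamonds) and in 17 alternative settings (points), with a dashed line at 0.05. Clu lies under the line in all 17, Fgf9 in 15, Ptgds in 14 and Tf in 3, and the other 5 genes lie above it.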

How the data were processed

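RNA of 17 fetal testis samples was sequenced after polyA selection with an unstranded kit (NEBNext Ultra II). The submitters' processing notes name Trimmomatic 0.36, STAR 2.5.2b, featureCounts, Subread 1.5.2, DESeq2, limma and the build mRatBN7.2. The authors deposited raw counts per gene and summed exon length, and a table of TPM values, treated as a score because its rows repeat. That table was used only as a check: the authors' deposited values for the 9 genes were 0.9644 to 0.9834 of the TPM computed here. The annotation release and strand setting are not stated.

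The 92 spike-in rows were left out. Counts were fitted with edgeR 4.0.16 in R 4.3.3 (quasi-likelihood F test, TMM, filterByExpr by dose group, 1 fit of all 17 libraries), which tested 18005 of 30560 genes. Calls are at p under 0.05 after Benjamini-Hochberg adjustment across those genes. The SE was derived from the log2 fold change and its F value, and a prior count of 2 entered log2 CPM. DESeq2 1.42.0 and limma 3.58.1 (voom), other scalings and filters, sample code as a term, leaving out each library and leaving out replicates 05 and 18 were alternatives. The scripts were tested on simulated data. The 9 genes, the lists and the named-gene rule (all 9 genes, called list members or else the 2 highest by TPM, and the 3 genes with the highest r at a mean of at least 1 CPM) were chosen with earlier results of these data known.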

Additional observations from a re-analysis of the deposited data

How the results depend on the processing

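At 300 mg/kg/d, Clu was called in 17 of 17 alternatives, Fgf9 in 15 and Ptgds in 14. Fgf9 was lost without vehicle replicate 01 (edgeR adjusted p = 0.0509) and without vehicle replicate 15 (0.0666). Ptgds was lost with sample code in the fit (0.0649), without vehicle replicate 01 (0.1) and without vehicle replicate 08 (0.0916). Tf was called in 3, with DESeq2 (0.0194), with only the compared groups (0.0414) and without replicates 05 and 18 (0.0403). Leaving out 1 library at a time gave 1 to 3 of the 9 called at 300 mg/kg/d (1 without vehicle replicate 01), 0 to 3 at 100 mg/kg/d (Fgf9, Kitlg and Ptgds without replicate 19) and 0 to 2 for 300 against 100 mg/kg/d (Clu and Tf without replicate 19). DESeq2 called 1 at 100 mg/kg/d and 2 for 300 against 100 mg/kg/d, and no filter called 1 (Clu) there. Over all genes, calls ranged from 212 to 869 at 300 mg/kg/d (432 as reported), 45 to 4250 at 100 (274), 0 to 26 at 11, 0 to 3 at 1, 0 to 5872 for 300 against 100 (1) and 586 to 1711 for the slope (1030).

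Signs turned among changes that were not called, and the cause was not tested. Without replicates 05 and 18, log2 changes at 100 mg/kg/d became 0.040 for Dmrt1 (from -0.058), 0.296 for Gdnf (from -0.107) and -0.237 for Kitlg (from 0.249), Gdnf for 300 against 100 became -0.163 (from 0.250) and its slope 0.0077. Upper-quartile scaling gave Tf 0.010 at 100 mg/kg/d. Leaving out 1 library gave -0.164 to 0.064 for Dmrt1, -0.37 to 0.037 for Gdnf, -0.124 to 0.087 for Tf and -0.0079 to 0.056 for Wt1 at 100, -0.0043 to 0.245 for Cldn11 and -0.161 to 0.195 for Kitlg for 300 against 100, and slopes of -0.0026 to 0.010 for Dmrt1 and -0.011 to 0.0051 for Gdnf. Signs also turned at 11 mg/kg/d, with -0.219 to 0.019 for Clu, -0.210 to 0.227 for Ptgds, -0.133 to 0.099 for Kitlg, -0.105 to 0.170 for Cldn11, -0.190 to 0.052 for Tf and -0.041 to 0.047 for Wt1, and at 1 mg/kg/d, with -0.270 to 0.160 for Ptgds, -0.174 to 0.062 for Kitlg and -0.068 to 0.143 for Tf. Of the list counts, 434 of 520 stayed within 1.5 times, with a list without calls in either fit taken as unchanged. These counts include the comparisons at 1 and 11 mg/kg/d, where no list gene was called in the reported fit. They do not show how stable the call of a single list gene is. Of the levels by TPM or per Wt1, 55 of 68 stayed within 1 SD of log2 CPM in the dose group. Replicate numbers are not shared between groups and pair no samples; the sample code, which groups do share, was the term in the fit named above.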

Other observations

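Over the dose slope, further list genes were called beside those described at 300 mg/kg/d. Of the 15 other Sertoli cell markers, 6 had a called positive slope and 3 a called negative one, as did 2.74% and 2.98% of all genes. Krt18, a keratin, had a slope of 0.08 (SE 0.015, edgeR adjusted p = 0.00316), Aard 0.07 (SE 0.0168, edgeR adjusted p = 0.0143) and Ctsl 0.07 (SE 0.0201, edgeR adjusted p = 0.0319), and Serpina5, a serine protease inhibitor, had -0.18 (SE 0.0534, edgeR adjusted p = 0.0484). Among other junction genes, 3 of 16 rose: Cldn3, at 0.364 TPM on average, with 0.26 (SE 0.0583, edgeR adjusted p = 0.00823), Espn with 0.07 (SE 0.0178, edgeR adjusted p = 0.0322) and Marveld2 with 0.06 (SE 0.0121, edgeR adjusted p = 0.00427). Igf1, an insulin-like growth factor, fell with a slope of -0.08 (SE 0.0184, edgeR adjusted p = 0.0147). Of the receptors, Lrp2, which takes up several of the secreted carriers, rose with 0.05 (SE 0.0149, edgeR adjusted p = 0.0424) and Fgfr4 fell with -0.08 (SE 0.0224, edgeR adjusted p = 0.0311).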
